A study of Mus musculus with 12 samples.

Results

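The cytosolic ribosomal protein genes, which encode the proteins of the ribosome outside the mitochondria, were described in RNA-seq of mouse lung endothelial cells (MLECs) with and without an endothelial deletion of the transcription factors Sp1 and Sp3. Genes were taken as members when their symbol was Rpl, Rps or Rplp with a number and at most one of the endings a, x, l or al, and when the annotation called them protein coding. Of 28689 genes in the deposited table, 80 were members, 31 of the small subunit and 49 of the large subunit, the latter including the 3 proteins of the stalk, Rplp0, Rplp1 and Rplp2. The annotated pseudogenes Rpl6l and Rpl32l, which have such symbols, were left out. Members lay on 19 chromosomes, with 14 of them on chromosome 7.

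There were 6 libraries from each group, written CTR and dKO. The dKO mice were VE-CAD-CreERT2+/Sp1fl/fl/Sp3fl/fl, in which tamoxifen switches on a Cre recombinase driven by the vascular endothelial cadherin promoter. The CTR mice were littermates with the same floxed alleles of both genes and no Cre transgene, although their genotype is labelled WT. Both groups were male, aged 6 to 8 weeks at the injections, and both received tamoxifen on 5 consecutive days. MLECs were selected with beads against CD31 and then ICAM2 and used within few passages. The table's columns are named CTR or TAM with a replicate number. CTR columns were taken as the control samples and TAM columns, by elimination, as dKO. The number of mice behind a library is not given, so p-values measure the spread between these libraries.

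A ribosome is assembled in the nucleolus from ribosomal RNA, made mostly by RNA polymerase I, and from ribosomal proteins that are needed in about equal numbers. Their mRNAs are among the most abundant of any cell, begin with a pyrimidine-rich tract that places their translation under the growth kinase mTOR, and come from genes with GC-rich promoters. Sp1 and Sp3 bind GC boxes in such promoters. Ribosomal protein genes have left many processed pseudogenes in mammalian genomes, near-identical copies without introns that compete for sequencing reads.

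Values are FPKM, the fragments of a gene divided by its length in kilobases and by the library total. A gene was tested where 6 or more of the 12 libraries had an FPKM of 1 or above, on log2(FPKM + 1) with limma, with p adjusted by Benjamini-Hochberg over all 12467 such genes. Libraries held between 15523054 and 17938286 fragments. Sp1 had 21.2 ± 1.77 FPKM (SD, n = 6) in CTR and 10.6 ± 1.53 FPKM in dKO (limma adjusted p = 5.68e-06), and the groups did not overlap. Sp3 had 24.2 to 31.1 FPKM in CTR and 22.5 to 26.9 FPKM in dKO, groups that overlapped (limma adjusted p = 0.0902). Of 12 endothelial markers 11 were higher in dKO, with a summed level of 194 to 294 FPKM in CTR libraries and 344 to 469 FPKM in dKO libraries. The extraction protocol in the labels speaks of retinas, and the 6 retina markers summed to at most 0.390 FPKM in any library.

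Ribosomal protein genes as a whole were lower in dKO MLECs. In CTR libraries the 80 genes together made up 7.78% to 8.80% of the summed FPKM, and in dKO libraries 6.01% to 7.18%. The mean share was 8.21% ± 0.353 (SD, n = 6) in CTR and 6.45% ± 0.401 in dKO, so that the dKO share stood at 78.6% of the CTR share. Every dKO library lay below every CTR library. Counted in fragments, which gives long genes more weight, the share was 4.01% ± 0.194 in CTR and 3.17% ± 0.278 in dKO. The highest dKO share was that of replicate 6 (7.18%), and the other 5 dKO libraries lay between 6.01% and 6.50%.

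**Figure D1:**
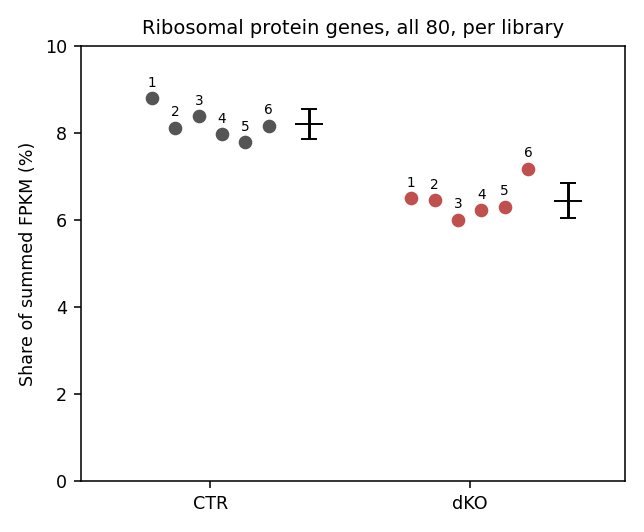
Share of the summed FPKM of each library, in percent on the vertical axis, that fell on the 80 ribosomal protein genes, for the 6 CTR and 6 dKO libraries. Points are libraries with their replicate number, and the bars beside them give the mean and SD; dKO replicate 6, at 7.18%, is the dKO library nearest to the CTR libraries, which start at 7.78%.

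Of the 80 genes, 76 passed the filter on low values, 65 of these were lower in dKO, 1 was higher and 10 did not pass the threshold. Among all 12467 genes tested, 53.1% passed the threshold, 32.6% as lower and 20.4% as higher. The median log2 fold change of the 76 genes was −0.36, against −0.10 over all genes tested, and 72 of the 76 values were negative. The changes were small: the median gene stood at 78.1% of its CTR level, the range ran from 51.6% to 130%, and 0 genes passed the fold threshold given in the study's text, a log2 change beyond 1.5, which 1.98% of all genes tested passed. A legend of the study names a 1.5-fold change instead, and beyond that 6 members were lower and 0 were higher, against 8.98% and 8.92% of all genes tested. For 41 of the 76 genes every dKO library lay below every CTR library, against 16.1% of all genes tested, and for 0 of them every dKO library lay above, against 11.3% of all genes. The same count was made among highly expressed genes, those with a mean of at least 50 FPKM. In that class 58 of 68 ribosomal protein genes were lower, and of all 961 genes 28.5% were lower and 33.2% were higher. The 893 other genes of that class had a median log2 fold change of 0.08.

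**Figure D2:**
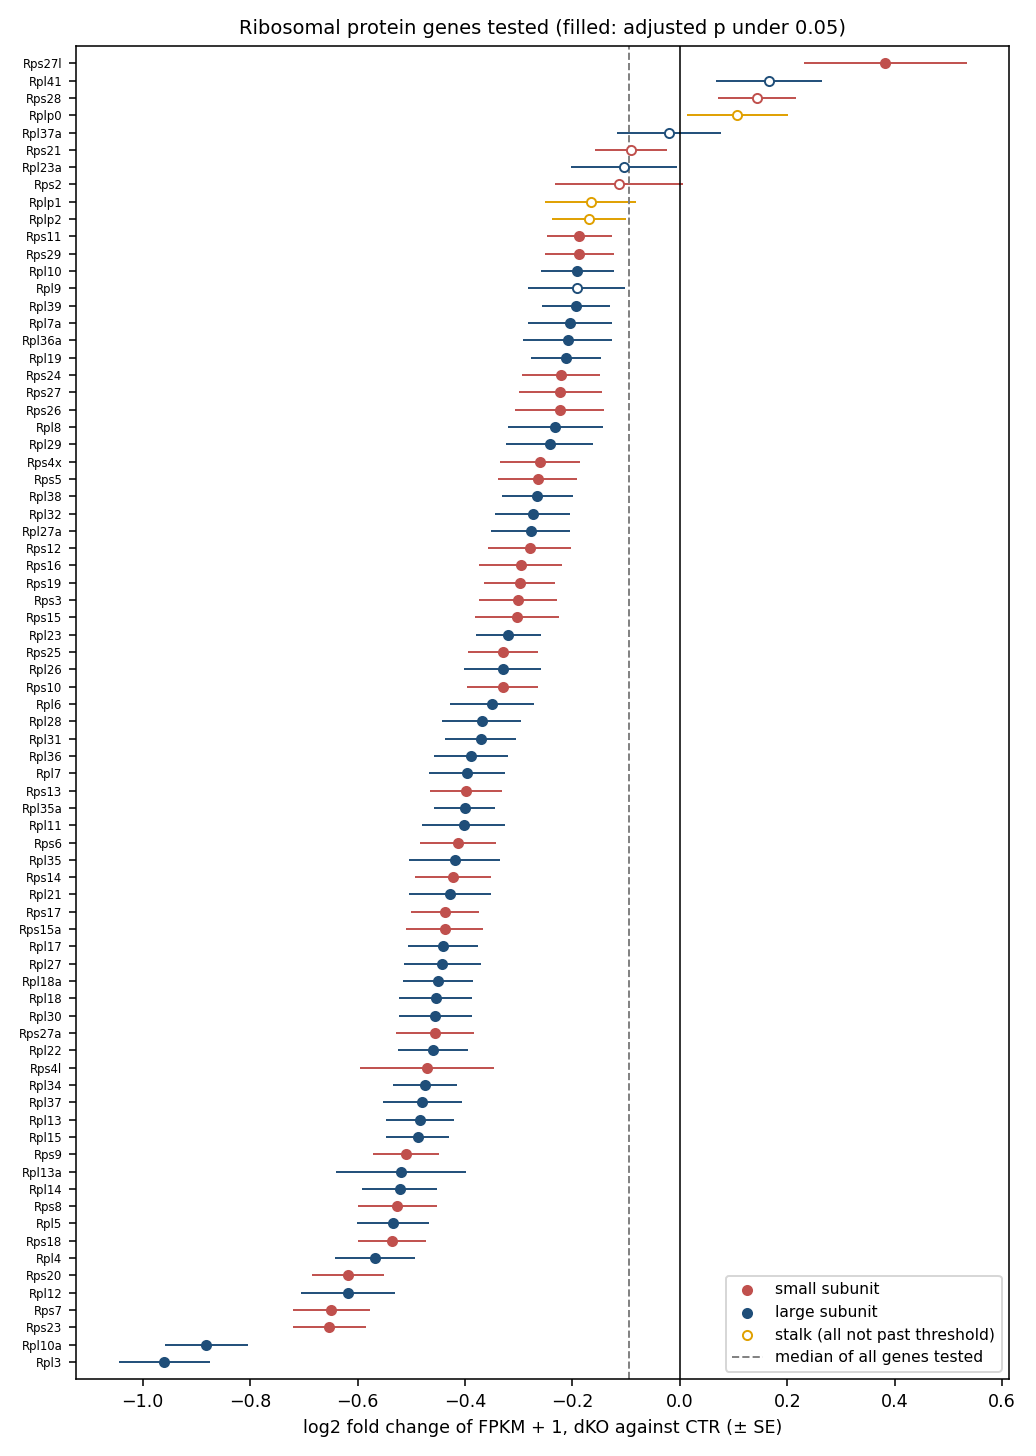
Log2 fold change of FPKM + 1 (horizontal axis, dKO against CTR, with its standard error) of the 76 tested ribosomal protein genes, ordered by it and coloured by subunit; filled points have a limma adjusted p under 0.05 and the dashed line is the median of all genes tested. Rpl10a and Rpl3 stand apart at −0.88 and −0.96, the next gene, Rps23, lies at −0.65, and Rps27l is the single filled point to the right of 0.

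Markers of other cells moved between the same groups. Of 10 macrophage markers 9 were higher in dKO and 1, Marco, was lower, and their summed level was 823 to 1371 FPKM in CTR and 2399 to 5349 FPKM in dKO. All 10 passed the filter on low values. Of 6 fibroblast markers 3 were lower and 1 was higher, with sums of 2122 to 2689 FPKM and 820 to 1645 FPKM. Of 8 proliferation markers 4 were lower, with sums of 81.0 to 239 FPKM and 84.8 to 117 FPKM. Of 8 leukocyte markers the 4 that were tested were all higher, and of 4 mesothelial markers 3 were. Of 6 smooth muscle and pericyte markers 5 were tested and 2 were higher, and of 6 lung epithelial markers, all tested, 1 was higher, with 0 lower in either list. The part of these cells in the lower ribosomal protein mRNA was not tested, and in bulk libraries a change in the mix of cells and less mRNA per cell cannot be told apart.

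The libraries were not alike within the groups. In dKO replicate 6 the median ribosomal protein gene lay 0.12 below the CTR mean on the log2 scale, while in the other 5 dKO libraries it lay 0.38 to 0.42 below. Replicate 6 was the highest dKO library for 70 of the 76 genes and the lowest for 0. CTR replicate 1 was the highest CTR library for 60 of the 76 genes, with a median of 0.13 above the CTR mean. Without dKO replicate 6, 68 genes were lower, 0 were higher and the median log2 fold change was −0.41. The share of all genes lower in that fit is not given here. In the fit of all 12 libraries, 65 of the 76 genes and 32.6% of all genes tested were lower. With dKO replicate 6 set aside, the groups did not overlap, dKO being below, for 62 of the 76 genes, against 17.3% of all genes tested. With every library kept, the values were 41 of the 76 genes and 16.1%. Replicate 6 was picked by its high values in these same genes, and its removal favours them over all genes tested. The contrast without replicate 6 is therefore a description and no test of the ribosomal protein genes against other genes.

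Rpl3 (ENSMUSG00000060036, chromosome 15, GRCm39, 79961825 to 79976069, minus strand), a protein close to the peptidyl transferase centre, had the largest fall. Its level was 367 to 428 FPKM in CTR libraries (median 389) and 162 to 232 FPKM in dKO libraries (median 205). The highest dKO value was well under the lowest CTR value, and the mean fell 1.94-fold (log2 change −0.96 ± 0.08 SE, limma adjusted p = 3.07e-06). Rpl10a (ENSMUSG00000037805), a protein of the flexible L1 stalk where spent tRNA leaves the ribosome, came next. It lay between 309 and 326 FPKM in CTR (median 312) and between 143 and 199 FPKM in dKO (median 169). Again no libraries overlapped, and the log2 change was −0.88 ± 0.08 SE (limma adjusted p = 2.85e-06).

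In the small subunit Rps23, which lies at the decoding centre, changed most. Its CTR libraries ran from 509 to 597 FPKM (median 541) and its dKO libraries from 310 to 384 FPKM (median 350), a log2 change of −0.65 ± 0.07 SE (limma adjusted p = 9.94e-06). Rps7 went from 247 to 281 FPKM (median 257) in CTR to between 147 and 192 FPKM (median 165) in dKO, with a log2 change of −0.65 ± 0.07 SE. Rps20 had 136 to 152 FPKM in CTR and 82.5 to 108 FPKM in dKO, with a log2 change of −0.62 ± 0.07 SE. In the large subunit Rpl12, part of the base of the stalk that recruits translation factors, had 197 to 251 FPKM in CTR and 130 to 168 FPKM in dKO, with a log2 change of −0.62 ± 0.09 SE. In none of these genes did a dKO library reach the CTR range. Each of the 6 genes with the largest falls was also lower in dKO in every other setting tried and without any single library. In these 6 genes 82.9% to 100% of the 100-base windows of the coding sequence recur elsewhere in the genome.

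**Figure D3:**
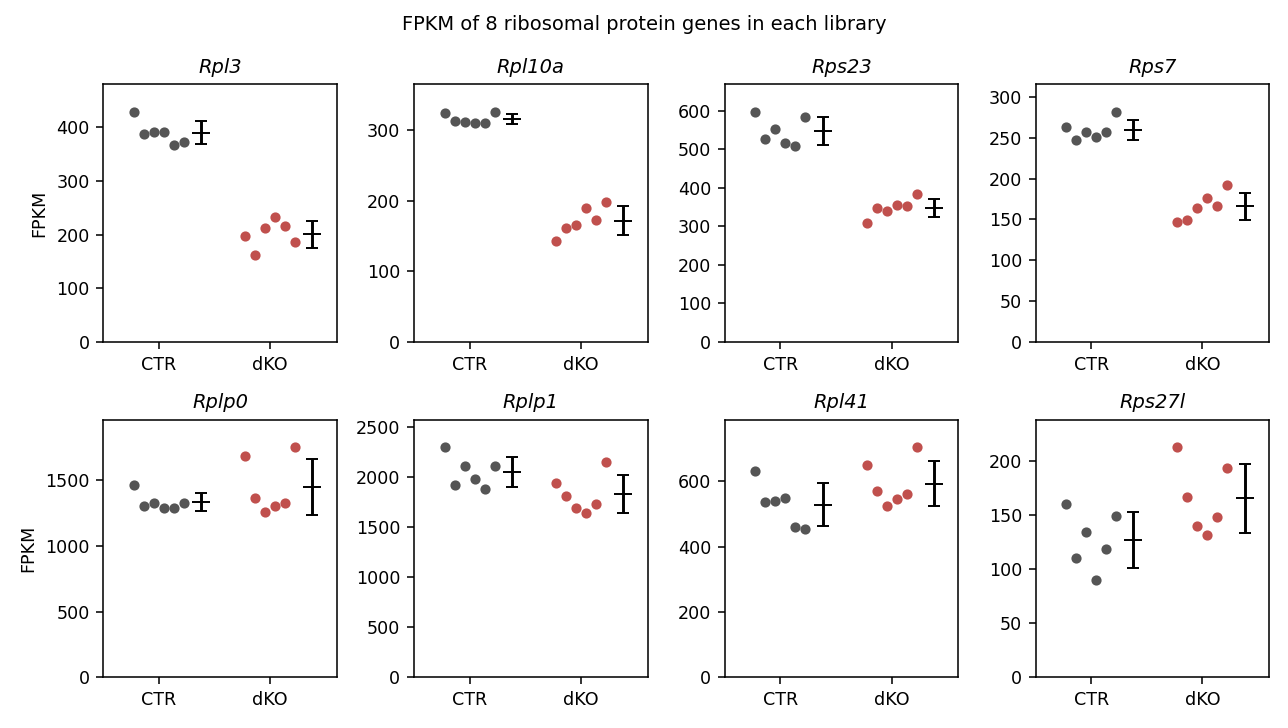
FPKM (vertical axes, from 0) of 8 ribosomal protein genes in the 6 CTR and 6 dKO libraries, with the mean and SD beside the points. In Rpl3, Rpl10a, Rps23 and Rps7 all dKO libraries lie below all CTR libraries, whereas in Rplp0, Rplp1, Rpl41 and Rps27l the groups overlap.

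Both subunits fell. In the small subunit 27 of 31 genes were lower and 1 was higher, and the median log2 change was −0.30. Of the 42 tested proteins of the large subunit outside the stalk, 38 were lower and 0 were higher, with a median of −0.40. Groups that did not overlap were found in 14 of the 31 small subunit genes and in 27 of the 42 large subunit genes outside the stalk. Among all genes tested 32.6% were lower, and in 16.1% every dKO library lay below every CTR library. Within a library, the log2 ratio of the median small subunit gene to the median large subunit gene, stalk included, was −0.09 ± 0.05 (SD, n = 6) in CTR and −0.05 ± 0.07 in dKO. The 2 ranges, −0.18 to −0.04 and −0.12 to 0.07, overlapped, and the difference of 0.04 was less than the spread between libraries. With pseudogene copies added to their genes the difference was 0.19, larger than the SD of either group without the copies. The spread between libraries with copies added is not given here. The comparison of the subunits thus depended on how copies were counted.

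None of the 3 stalk proteins, which form the arm that activates the GTPases of translation, passed the threshold, and neither did 4 of the 42 other tested proteins of the large subunit, Rpl9, Rpl23a, Rpl37a and Rpl41 (Rpl9 and Rpl23a were named after their values were seen). Rplp1 was the most abundant member, at 1880 to 2297 FPKM in CTR (median 2044) and 1645 to 2153 FPKM in dKO (median 1772). Its groups overlapped, and the log2 change was −0.17 ± 0.09 SE (limma adjusted p = 0.116). Rplp2 had 136 to 168 FPKM in CTR and 124 to 151 FPKM in dKO (log2 change −0.17 ± 0.07 SE, limma adjusted p = 0.0557). For Rplp0, 1287 to 1466 FPKM in CTR stood against 1260 to 1750 FPKM in dKO, with a log2 change of 0.11 ± 0.09 SE (limma adjusted p = 0.351). In that gene 4 of the 6 dKO libraries lay within or below the CTR range and replicates 1 and 6 lay above it. Rplp1 and Rplp2 did pass the threshold in 4 of 15 other settings each, always as lower, and the direction of Rplp0 was not stable, from −0.22 to 0.20 across all alternatives.

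Levels in the groups were compared across genes. Over the 76 genes Pearson's r between log2 mean FPKM in CTR and in dKO was 0.990, a description over genes that share the same libraries. The tested genes ran from 4.79 FPKM for Rpl13a to 1940 FPKM for Rplp1, with a median of 200 FPKM, and 22 members stood among the 100 genes of highest mean FPKM. These levels are per kilobase of the gene length behind the FPKM, which for many ribosomal protein genes is longer than the mature mRNA: for Rpl3 it came to 3119 bases, with a coding sequence of 1209 bases. The 5 members of highest level were Rplp1, Rplp0, Rps2, Rpl8 and Rps15. Rps2 had 936 to 1271 FPKM in CTR and 790 to 1193 FPKM in dKO and did not pass the threshold (log2 change −0.11 ± 0.12 SE, limma adjusted p = 0.439). Rpl8 had 911 to 1225 FPKM in CTR and 822 to 1070 FPKM in dKO (−0.23 ± 0.09 SE, limma adjusted p = 0.0411). That call was lost when any one of 8 of the 12 libraries was left out and in 5 of 15 other settings. Rps15 had 894 to 1038 FPKM in CTR and 716 to 924.5 FPKM in dKO (−0.30 ± 0.08 SE, limma adjusted p = 0.00545), a call lost in 1 of 15 other settings. Over the 76 genes Spearman's rho between log2 fold change and mean FPKM was 0.02, and between log2 fold change and coding length it was −0.34.

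At the upper end of the order, 5 genes beside Rps27l had the smallest falls or a rise, none past the threshold. Rpl41, the shortest ribosomal protein, had 455 to 631 FPKM in CTR and 526 to 704 FPKM in dKO (log2 change 0.17 ± 0.10 SE, limma adjusted p = 0.171). Rps28 had 75.4 to 91.7 FPKM and 82.1 to 103 FPKM (0.14 ± 0.07 SE, limma adjusted p = 0.114). For Rpl37a the log2 change was −0.02 ± 0.10 SE and for Rps21 it was −0.09 ± 0.07 SE. Rplp0 is the fifth. When FPKM were rescaled by medians of ratios, under which the median of all genes tested was −0.02, Rpl41 and Rps28 passed as higher beside Rps27l, 50 of the 76 genes were lower, and 24.6% of all genes tested were lower.

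Members with roles outside the bulk of the ribosome moved with the rest. Rps6, the target of S6 kinase, had 537 to 637 FPKM in CTR and 404 to 510 FPKM in dKO (log2 change −0.41 ± 0.07 SE). Rpl5 and Rpl11, which with 5S rRNA can bind Mdm2 and so stabilize p53, had log2 changes of −0.53 ± 0.07 SE and −0.40 ± 0.08 SE. Rpl5 went from 226 to 255 FPKM in CTR to 158 to 197 FPKM in dKO, and Rpl11 from 142 to 169 FPKM to 105 to 140 FPKM, with no overlap in either. Rps19, mutated in Diamond-Blackfan anaemia, had 72.6 to 83.1 FPKM and 57.2 to 73.2 FPKM, and a single dKO library reached the CTR range (−0.30 ± 0.07 SE). Rps27a, made as a fusion with ubiquitin, had 171 to 200 FPKM and 125 to 162 FPKM (−0.46 ± 0.07 SE). Rpl38, known from translation of Hox mRNAs, had 184 to 223 FPKM and 151 to 184 FPKM (−0.27 ± 0.07 SE). Rps18 and Rpl13a, both common reference genes for PCR, were lower too: Rps18 had 220 to 258 FPKM in CTR and 152 to 181 FPKM in dKO (−0.54 ± 0.06 SE), and Rpl13a 4.73 to 7.90 FPKM and 3.04 to 5.07 FPKM (−0.52 ± 0.12 SE). All of these had a limma adjusted p of at most 0.00466. Rpl13a had the lowest level of the tested members, a mean of 4.79 FPKM against a median of 200 FPKM over them. The cause of that low level was not tested.

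Ribosomal proteins that the symbol rule leaves out behaved alike in part. Rack1, the receptor for protein kinase C on the small subunit, fell from 251 to 284 FPKM in CTR to 186 to 228 FPKM in dKO (log2 change −0.41 ± 0.06 SE). Rps3a1 fell from 990 to 1054 FPKM to 749 to 952 FPKM (−0.32 ± 0.07 SE). Fau, a fusion of a ubiquitin-like protein with Rps30, had a log2 change of −0.20 ± 0.07 SE (limma adjusted p = 0.0332). Its call was lost when any one of 8 of the 12 libraries was left out and in 4 of 15 other settings. Rpsa, the laminin receptor, had −0.15 ± 0.11 SE (limma adjusted p = 0.259). With the paralogs Rpl22l1 and Rpl7l1, 4 of 7 such genes were lower and 0 were higher, with a median of −0.20. Among all genes tested 32.6% were lower and 20.4% were higher, with a median of −0.10.

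Some ribosomal proteins have a paralog, and 7 pairs were compared within each library, as log2 ratios of FPKM + 1. Exact two-sided permutation tests were used, adjusted over the pairs. Rps27l, the only member called higher, is a p53-responsive paralog of Rps27. Their coding sequences are both 252 bases long, differ at 60 bases (76.2% identity) and share no run longer than 11 bases. Reads of the 2 genes can thus be told apart from each other. Reads of Rps27 and of its own copies are harder to tell apart. Of the 100-base windows of the coding sequence, 100% recur elsewhere in the genome for Rps27 and 0% for Rps27l. The sequences are from GRCm39 and the GENCODE annotation, 5′ to 3′, with the bases that differ in capitals. Rps27 lies on chromosome 3 (90119819 to 90120977, minus strand) and Rps27l on chromosome 9 (66853340 to 66856808, plus strand).
Rps27: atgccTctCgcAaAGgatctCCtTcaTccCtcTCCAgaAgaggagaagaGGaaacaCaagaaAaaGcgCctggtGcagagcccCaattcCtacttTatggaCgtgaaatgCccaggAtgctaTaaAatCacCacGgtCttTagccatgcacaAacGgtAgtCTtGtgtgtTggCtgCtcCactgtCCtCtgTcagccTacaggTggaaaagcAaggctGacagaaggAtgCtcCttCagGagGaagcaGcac
Rps27l: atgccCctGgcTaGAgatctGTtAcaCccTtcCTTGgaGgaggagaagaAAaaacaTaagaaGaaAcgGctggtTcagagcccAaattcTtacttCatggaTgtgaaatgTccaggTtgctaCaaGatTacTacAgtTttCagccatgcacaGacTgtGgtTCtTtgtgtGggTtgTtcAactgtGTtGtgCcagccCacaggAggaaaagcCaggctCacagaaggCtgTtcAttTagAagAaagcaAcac

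Rps27l had 90.2 to 160 FPKM in CTR (median 126) and 132 to 213 FPKM in dKO (median 158). Its groups overlapped, with 3 dKO libraries above all CTR libraries, and the log2 change was 0.38 ± 0.15 SE (limma adjusted p = 0.0485). That call was lost when any one of 8 of the 12 libraries was left out and in 3 of 15 other settings, over which the limma adjusted p ran from 0.00374 to 0.148. Rps27 had 87.4 to 111 FPKM in CTR and 73.5 to 96.0 FPKM in dKO (log2 change −0.22 ± 0.08 SE, limma adjusted p = 0.0272), a call lost without CTR replicate 4, without dKO replicate 3 and in 3 of 15 other settings (limma adjusted p up to 0.181). The ratio within a library was 0.40 ± 0.39 (log2, SD, n = 6) in CTR and 1.00 ± 0.26 in dKO (difference 0.61, exact permutation adjusted p = 0.0114). Replicates 1 and 6 of CTR, the higher of which was at 0.76, reached into the dKO range, which began at 0.71.

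Rpl22l1, the paralog of the RNA-binding protein Rpl22, moved the other way and fell further than its parent. It had 7.14 to 8.98 FPKM in CTR (median 7.81) and 2.40 to 3.55 FPKM in dKO (median 3.12), with no overlap (log2 change −1.15 ± 0.08 SE, limma adjusted p = 6.46e-07). Rpl22 had 75.4 to 81.5 FPKM in CTR and 51.1 to 64.9 FPKM in dKO (−0.46 ± 0.07 SE). The ratio of the pair fell by 0.69 on the log2 scale (exact permutation adjusted p = 0.00758). Rpl7l1 had 40.1 to 60.1 FPKM in CTR and 39.5 to 75.3 FPKM in dKO, without a call (limma adjusted p = 0.490), while Rpl7 fell (−0.40 ± 0.07 SE), and their ratio rose by 0.52 (exact permutation adjusted p = 0.0101). Rps4l, the autosomal paralog of X-linked Rps4x, fell with its parent (−0.47 ± 0.12 SE against −0.26 ± 0.07 SE, the latter a call lost in 2 of 15 other settings), and the ratio did not pass the threshold (difference −0.21, exact permutation adjusted p = 0.136). The paralogs Rpl3l, known from striated muscle, Rpl39l, known from testis, and Rpl36al lay under 1 FPKM in all libraries, so that their ratios to Rpl3, Rpl39 and Rpl36a follow the parent gene and say little of the paralog. Those ratios differed by 0.90 (exact permutation adjusted p = 0.00758), 0.32 (exact permutation adjusted p = 0.0394) and 0.19 (exact permutation adjusted p = 0.217), and the first and second lost their call at a pseudocount of 0.1.

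**Figure D4:**
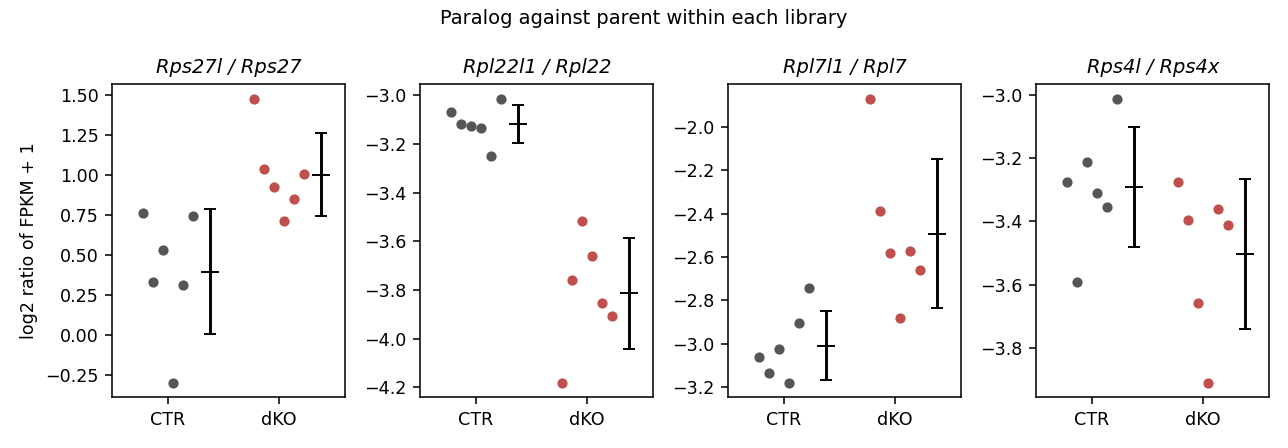
Log2 ratio of FPKM + 1 of a paralog to its parent gene (vertical axes, which do not start at 0) within each of the 6 CTR and 6 dKO libraries, with mean and SD, for the 4 pairs whose paralog was tested. Rps27l and Rpl7l1 are higher against their parents in dKO, Rpl22l1 is lower with no overlap, and the ratio of Rps4l to Rps4x overlaps between the groups.

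The 4 members that were not tested, Rpl3l, Rpl24, Rpl36al and Rpl39l, had at most 69 fragments each over all 12 libraries. Rpl24 is a constitutive part of the large subunit, yet it was at 0.117 to 0.446 FPKM in CTR and 0 to 0.188 FPKM in dKO. All 100-base windows of its coding sequence recur elsewhere in the genome, and the study kept uniquely aligned reads alone. Whether that accounts for its level was not tested.

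The share of windows that recur elsewhere differs between members, so each coding sequence was searched for in the GRCm39 genome. At least 1 copy of 95% identity or more over at least 80% of the coding sequence was found for 73 of the 80 genes, with a median of 6 copies and at most 56, for Rpl21. For 24 of the tested genes every window of 100 bases recurred elsewhere, and of these 22 were lower, with a median log2 fold change of −0.38. Of 29 genes with 50% to under 100% of windows elsewhere 26 were lower (median −0.39), and of 22 genes with under 50% 17 were lower and 1 was higher (median −0.29). Of all genes tested, 32.6% were lower and 20.4% were higher (median −0.10). Among the 11 genes with under 10% of windows elsewhere 9 were lower and 1 was higher (median −0.27). The largest fall among them was that of Rpl4, with 901 to 1128 FPKM in CTR and 649 to 796 FPKM in dKO. Its log2 change was −0.57 ± 0.07 SE, and it was named after its values were seen. Spearman's rho between log2 fold change and the share of windows elsewhere was −0.15 over 75 genes. The 397 copies listed in the table as genes of their own held 2.58% ± 0.0733 (SD, n = 6) of the summed FPKM in CTR and 1.98% ± 0.128 in dKO. With the copies added to their genes, 65 members were lower, and the median log2 fold change was −0.33. Values of genes other than the members were left as they were in that fit.

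GC boxes, the sites Sp1 and Sp3 are known to bind, were counted as GGGCGG on either strand from 250 bases before to 50 bases after the start sites listed by RefSeq (GRCm38.p6). Windows were listed for 55 of the 76 tested members, and 34 of these (61.8%) held at least 1 GC box, against 70.5% of 8917 protein-coding genes tested. Of the 34 with a GC box 28 were lower (median log2 fold change −0.33), and of the 21 without one 18 were lower (median −0.33). Among the protein-coding genes tested, 2060 of 6284 with a GC box and 879 of 2633 without one were lower (medians −0.09 and −0.10). At the start sites of the GENCODE annotation, 51.3% of all 76 tested members and 58.8% of 11303 protein-coding genes held a GC box. There 34 of the 39 members with one and 31 of the 37 without one were lower. Of the protein-coding genes, 2173 of 6650 with one and 1518 of 4653 without one were lower. Annotated starts of ribosomal protein genes differ between sources, and a window at a wrong start misses the promoter. Windows of the 2 members with the largest falls and of the 2 with the highest log2 fold changes that RefSeq lists are shown to let their GC boxes be compared, 5′ to 3′ on the strand of the gene, from 250 bases before the most upstream start to 25 bases after it, with GC boxes in capitals. They are Rpl10a (GRCm38.p6, chr17:28328221-28328495, plus strand), Rps23 (chr13:90922872-90923146, plus strand), Rpl41 (chr10:128549144-128549418, minus strand) and Rps27l (chr9:66945836-66946110, plus strand).
Rpl10a: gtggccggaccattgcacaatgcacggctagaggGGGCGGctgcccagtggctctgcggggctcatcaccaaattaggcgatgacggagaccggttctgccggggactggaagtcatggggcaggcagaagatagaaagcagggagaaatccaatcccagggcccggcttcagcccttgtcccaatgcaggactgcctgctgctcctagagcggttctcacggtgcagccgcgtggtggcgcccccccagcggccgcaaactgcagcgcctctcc
Rps23: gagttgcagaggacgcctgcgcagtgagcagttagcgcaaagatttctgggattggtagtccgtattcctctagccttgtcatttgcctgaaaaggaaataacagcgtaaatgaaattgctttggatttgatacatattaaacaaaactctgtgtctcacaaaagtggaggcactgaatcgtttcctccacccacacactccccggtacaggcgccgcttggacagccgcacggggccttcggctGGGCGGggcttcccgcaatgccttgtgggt
Rpl41: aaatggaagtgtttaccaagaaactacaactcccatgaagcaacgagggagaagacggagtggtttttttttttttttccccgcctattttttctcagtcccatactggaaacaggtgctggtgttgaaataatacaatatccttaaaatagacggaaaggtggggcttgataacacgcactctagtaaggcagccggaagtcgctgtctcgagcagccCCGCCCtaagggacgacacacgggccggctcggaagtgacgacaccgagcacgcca
Rps27l: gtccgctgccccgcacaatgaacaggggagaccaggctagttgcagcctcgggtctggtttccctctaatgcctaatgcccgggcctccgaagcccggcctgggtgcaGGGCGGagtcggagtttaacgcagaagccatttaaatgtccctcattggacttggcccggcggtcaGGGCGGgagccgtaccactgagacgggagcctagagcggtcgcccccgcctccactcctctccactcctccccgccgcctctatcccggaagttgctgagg

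All 4 windows held a GC box. Rpl10a and Rps23, which fell, had 1 each, and so did Rpl41, which did not pass the threshold, while Rps27l had 2. RefSeq lists a second start for Rpl10a and for Rps27l, and the window at that start held no GC box in either gene. At the GENCODE starts, the count was 1 for Rpl10a, 2 for Rps23, 0 for Rpl41 and 2 for Rps27l. A match of these letters describes the sequence and does not show that a factor binds it.

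Other genes of protein synthesis were described from lists, by counts and medians, and their difference from the ribosomal proteins was not tested. Among all genes tested 32.6% were lower, 20.4% were higher and the median log2 change was −0.10. Of 34 translation initiation factors 18 were lower and 0 were higher, and the median log2 change was −0.24. Eif4b, a cofactor of the RNA helicase eIF4A, went from 197 ± 20.1 FPKM in CTR to 136 ± 11.5 FPKM in dKO (limma adjusted p = 0.000177), the poly(A)-binding protein Pabpc1 from 235 ± 19.1 to 178 ± 9.76 FPKM (limma adjusted p = 0.000343), and Eif3h from 175 ± 3.37 to 155 ± 13.7 FPKM (limma adjusted p = 0.0327), a call lost when any one of 8 of the 12 libraries was left out and in 4 of 15 other settings. Of 10 elongation and release factors 5 were lower and 0 were higher, with a median of −0.33. Eef1a1, which brings aminoacyl-tRNA to the ribosome, had 3633 to 4060 FPKM in CTR and 2336 to 2911 FPKM in dKO (log2 change −0.55 ± 0.08 SE), and Eef2, the translocase, 1340 to 1428 FPKM and 955 to 1184 FPKM (−0.39 ± 0.07 SE). The groups overlapped in neither. The call of Eef1a1 was lost in 2 of 15 other settings, without a filter and after quantile normalization (limma adjusted p up to 0.116). Tpt1, whose mRNA carries the same pyrimidine tract, had 797 to 917 FPKM in CTR and 851 to 1046 FPKM in dKO (0.14 ± 0.07 SE, limma adjusted p = 0.118).

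Of 40 ribosome assembly and nucleolar genes 20 were lower and 1 was higher, and the median log2 change was −0.48, below that of the ribosomal proteins. Npm1, an abundant nucleolar chaperone, had 196 to 338 FPKM in CTR and 106 to 184 FPKM in dKO (−1.03 ± 0.15 SE, limma adjusted p = 9.19e-05), and Ncl, nucleolin, 47.7 to 89.2 FPKM and 33.6 to 65.8 FPKM (−0.66 ± 0.17 SE, limma adjusted p = 0.00486). Ncl overlapped between the groups, and Rrp1 did not pass the threshold (−0.14 ± 0.06 SE). Of 15 genes of RNA polymerase I and its factors 10 were lower and 1 was higher (median −0.26). The higher one was Polr1d, shared with RNA polymerase III, with 22.6 ± 1.00 FPKM in CTR and 28.7 ± 6.79 FPKM in dKO (limma adjusted p = 0.0473). That call was lost when any one of 9 of the 12 libraries was left out and in 3 of 15 other settings. Polr1c, with 18.3 to 21.3 FPKM in CTR and 14.5 to 21.7 FPKM in dKO, was lower (limma adjusted p = 0.0413). Its call was also lost without any one of 9 libraries and in 3 of 15 other settings. The initiation factor Rrn3 did not pass the threshold (limma adjusted p = 0.169).

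Of 18 tested genes of growth signalling to ribosomes 8 (44.4%) were lower and 2 (11.1%) were higher, with a median of −0.14. This was near the values of all genes tested, of which 32.6% were lower and 20.4% higher, with a median of −0.10. Eif4ebp1, a repressor of translation under mTOR, went from 105 ± 14.5 to 75.5 ± 4.80 FPKM (limma adjusted p = 0.000809), while Akt1 and Eif4ebp2 did not pass the threshold (limma adjusted p = 0.637 and 0.724). Of 12 tested genes of ribosomal stress and ribosome surveillance 6 (50%) were lower and 2 (16.7%) were higher. The 2 that were higher were Cdkn1a, the cell cycle inhibitor induced by p53, with 92.7 to 172 FPKM in CTR and 195 to 357 FPKM in dKO (log2 change 0.98 ± 0.16 SE, limma adjusted p = 0.000246), and Mdm2, which degrades p53 and is itself induced by it, with 29.5 ± 5.80 FPKM and 61.0 ± 24.6 FPKM (0.96 ± 0.21 SE, limma adjusted p = 0.00225). All dKO libraries lay above all CTR libraries for Cdkn1a, and not for Mdm2, whose highest dKO value was that of replicate 1. Nop53, a ribosome assembly factor that also acts on p53, was lower (−0.41 ± 0.08 SE, limma adjusted p = 0.00061).

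**Figure D5:**
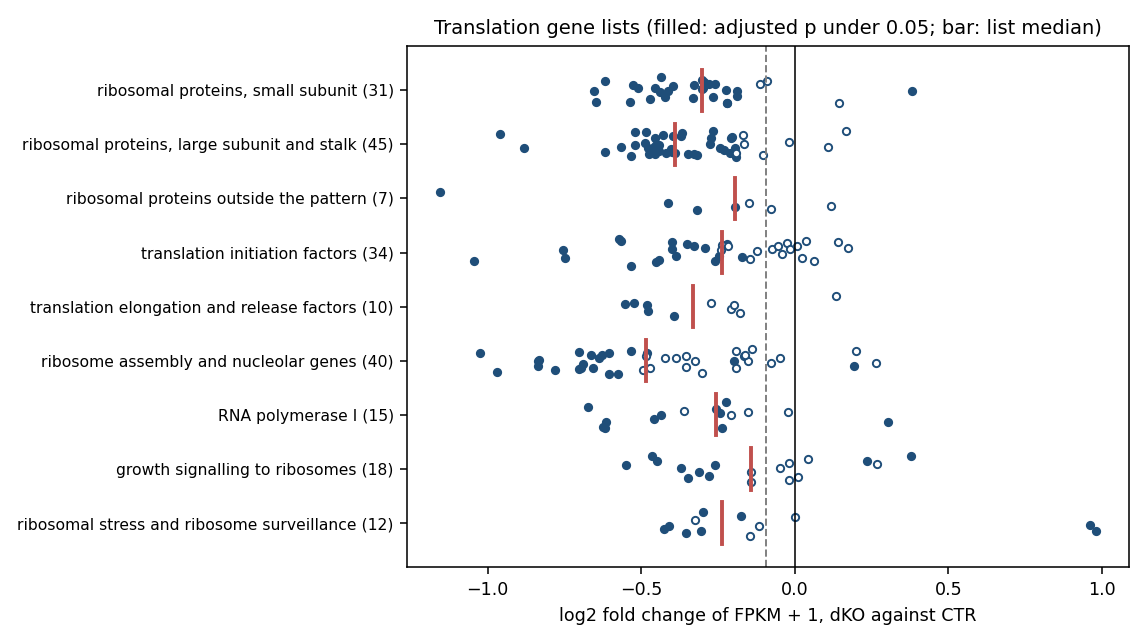
Log2 fold change of FPKM + 1 (horizontal axis, dKO against CTR) of the tested genes in lists of protein synthesis, with the number of tested genes after each name; filled points have a limma adjusted p under 0.05, red bars are list medians and the dashed line is the median of all genes tested. The list medians lie between −0.48 for ribosome assembly and −0.14 for growth signalling, and the points furthest to the right are Mdm2 and Cdkn1a.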

How the data were processed

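RNA of MLECs from 6 CTR and 6 dKO samples was sequenced as paired reads, and samples were grouped by the labels. The table's TAM columns were assigned to dKO as the group left once the CTR columns were matched to the control samples; no label spells TAM, and both groups received tamoxifen. Reads were trimmed (Trimmomatic) and mapped to mm39 (STAR) by the authors, who kept those aligned uniquely. FPKM values were deposited by the authors for 28689 genes; the counting program, annotation and strand setting are not given in the sources used here. Symbols came from GENCODE M39 (GRCm39) for 27706 genes. FPKM were tested as log2(FPKM + 1) with limma 3.58.1 in R 4.3.3 (trend, no block), a gene passing with at least 1 FPKM in 6 libraries; such fold changes understate the change of low genes. Whole fragment numbers behind the FPKM were recovered from whole library totals and gene lengths, and 8933 of 28689 lengths equal the exon length of the annotation. Copies were sought with BLAST 2.17.0. Exact permutation tests used all 924 splits. Tables, tests and figures were made in Python 3.11.15 with NumPy 2.4.6, pandas 2.3.3, SciPy 1.17.1, pysam 0.24.0 and Matplotlib 3.10.9. The fit, the recovery and the permutation test were tested on simulated data.

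Members and lists were chosen with earlier results of these data known. Genes named are the 6 tested members with the largest fall and the 6 with the largest rise, the 5 of highest level, stalk proteins, paralog pairs, 9 members and 5 other ribosomal proteins of known roles, the 3 genes of highest level in each list, and Sp1 and Sp3. Alternatives were other pseudocounts, filters, scalings, variance models, the replicate number as a block, limma-voom on the recovered fragments, copies added to their genes, and leaving out each library; their effect is given at the end. Values of 1 of these 5 other ribosomal proteins are not reported here.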

Additional observations from a re-analysis of the deposited data

Results flagged for a closer look

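In each group of 6 the highest and the lowest library of each named gene were compared with the rest by Dixon's test at the 95% level. Of 126 groups, 22 held a library apart, and about 6.3 would by chance. In 11 of these 22 the library was dKO replicate 6, always as the highest: Rplp2 at 151 FPKM (others 124 to 132), Rpl10 at 313 FPKM (others 248 to 259), Rpl39 at 97.2 FPKM (others 81.0 to 86.5), Rps27 at 96.0 FPKM (others 73.5 to 81.7) and Rpl36a at 124 FPKM (others 92.0 to 103). The same held for Rpl7 at 352 FPKM (others 275 to 297), Rps4x at 552 FPKM (others 419 to 465), Rpl5 at 197 FPKM (others 158 to 168), Rps18 at 181 FPKM (others 152 to 157), Rack1 at 228 FPKM (others 186 to 194) and Tpt1 at 1046 FPKM (others 851 to 922).

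In dKO replicate 1, Npm1 stood at 184 FPKM (others 106 to 133), Ncl at 65.8 FPKM (others 33.6 to 43.7), Rrn3 at 25.2 FPKM (others 15.7 to 18.7) and Mdm2 at 108 FPKM (others 34.4 to 59.6). In CTR replicate 1, Rplp0 stood at 1466 FPKM (others 1287 to 1330), Rps18 at 258 FPKM (others 220 to 232) and Tpt1 at 917 FPKM (others 797 to 820). In CTR replicate 4, Rps27 stood at 111 FPKM (others 87.4 to 95), Eif3h at 181 FPKM (others 172 to 175) and Nop53 at 59.2 FPKM (others 44.8 to 49.2). Rpl3l was at 0.0346 FPKM in dKO replicate 3 and listed at 0 in the other 5 dKO libraries.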

How the results depend on the processing

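The number of ribosomal protein genes lower in dKO lay between 50 (median-of-ratios scaling, on FPKM or with limma-voom) and 69 (quantile normalization), of 76 to 80 tested, and their median log2 fold change between −0.44 and −0.27. Of the 65 lower genes 49 were lower in each of 26 alternatives that keep the genes apart. The number higher was 0 without a filter, after rescaling to TPM and after quantile normalization, 2 with array weights, and 3 with median-of-ratios scaling on FPKM or in limma-voom. Genes higher in the other lists, 6 in the analysis as reported, came to 3 after rescaling to TPM. With copies added, the share differed by −2.35 percentage points in place of −1.76, and the subunit ratio by 0.193. At a pseudocount of 0.1, the ratio of Rpl3l to Rpl3 differed by 0.516 (exact permutation adjusted p = 0.152) and that of Rpl39l to Rpl39 by 0.776 (exact permutation adjusted p = 0.212). Over 60 named genes and 27 alternatives, 1474 of 1619 calls were as reported, 111 were lost, 34 were gained and 0 changed direction.

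Leaving out 1 library at a time gave 58 to 68 lower and 0 to 1 higher members, a median log2 fold change of −0.405 to −0.326, 59 to 87 lower and 3 to 7 higher genes in the other lists, a share difference of −1.91 to −1.64 percentage points and a subunit ratio difference of 0.014 to 0.053. Ratio differences ran from −0.754 to −0.621 for Rpl22l1, from 0.103 to 0.268 for Rpl36al, from 0.262 to 0.391 for Rpl39l, from 0.836 to 0.940 for Rpl3l, from 0.392 to 0.594 for Rpl7l1, from 0.466 to 0.678 for Rps27l and from −0.270 to −0.128 for Rps4l, which passed without CTR replicate 2. Libraries of the same replicate number share only the number: correlations of their deviations ran from −0.108 to 0.565, and 2 of 6 libraries correlated best with their own number. With the replicate block, 62 members were lower and 1 was higher.

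Where 1 library decides a call, the cause was not tested. Genes under 1 FPKM in most libraries were not tested.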
